A study of Mus musculus with 12 samples.

Results

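Day 7 embryoid bodies (EBs) that lacked HP1β were compared directly with day 7 EBs that lacked HP1α. EBs are aggregates in which embryonic stem cells (ESCs) differentiate without direction in suspension once leukaemia inhibitory factor is withdrawn. The 4 arrays used were the 2 EB HP1βKO arrays (genotype Cbx1-/-) and the 2 EB HP1αKO arrays (genotype Cbx5-/-) of a series of 12 mouse arrays, which also holds WT EBs and ESCs of all 3 genotypes. The cells received no treatment, the parental ESCs had been kept on mitotically inactive embryonic fibroblasts, and the labels give the line R1 for both knockouts and HM1 for WT. The study describes HM1 as the littermate control of the knockout lines. The replicates are titled biological replicates, while separate cultures or clones are not spelled out, so p-values measure the spread between these arrays only. Each array gave a log2 signal per gene. Of 19938 genes with a single symbol, 10186 lay above a signal of 45 (log2 5.49), the floor of the study, on at least 1 of the 4 arrays and were tested.

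HP1 proteins carry a chromodomain that binds methylated lysine 9 of histone H3 and a chromoshadow domain through which they pair and recruit partners. Mammals have HP1α, HP1β and HP1γ, encoded by Cbx5, Cbx1 and Cbx3, which take part in silencing at pericentric heterochromatin and are also found at genes in euchromatin. In EBs the exit from pluripotency is followed by the appearance of mesoderm, including beating cardiomyocytes, and of endoderm, blood, endothelium and neural cells. The direct contrast asks in which genes loss of one paralogue differs from loss of the other. Differences are given as HP1βKO minus HP1αKO on the log2 scale, ± the standard error from limma, each group having n = 2 arrays. A gene was called higher or lower at a Benjamini-Hochberg adjusted p under 0.05. The EB WT arrays, whose line label differs, are given as reference levels and took no part in the test.

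The targeted genes were read first. Cbx1 lay at 7.73 and 7.67 on the HP1βKO arrays, against 9.65 and 9.65 on the HP1αKO arrays and 9.36 and 9.45 in WT. Cbx5 lay at 9.20 and 9.21 on the HP1αKO arrays, against 10.26 and 10.31 on the HP1βKO arrays and 10.36 and 10.40 in WT. Each targeted gene was thus low on both arrays of its own knockout and did not overlap the other group. The differences were -1.95 ± 0.08 for Cbx1 (adjusted p = 8.6e-06) and 1.09 ± 0.08 for Cbx5 (adjusted p = 0.00013). Cbx3 lay at 11.42 and 11.36 in HP1αKO and at 11.23 and 11.10 in HP1βKO, and its difference of -0.23 ± 0.09 did not pass (adjusted p = 0.125). The position of the probes relative to the deleted parts was not known here.

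The replicates lay close together. The SD over genes of the replicate difference was 0.12 for HP1αKO and 0.19 for HP1βKO, against an SD of 0.45 for the difference of the group means. The array medians lay between 7.35 and 7.46, lowest for HP1βKO 2, and between 94.4% and 95.1% of the genes tested lay above the floor on an array. Hprt, the purine salvage enzyme used as a selectable locus in ESC work, stood at 6.28 and 6.84 in HP1αKO, at 3.83 and 4.12 in HP1βKO and at 4.22 and 4.40 in WT. It was lower in HP1βKO by -2.58 ± 0.18 (adjusted p = 8.54e-05), although both knockouts carry the same line label, and a difference between the lines and the loss of either HP1 protein cannot be told apart with this design. Each value is also an average over the aggregates, so that fewer cells of a type and less RNA per cell cannot be told apart.

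Of the 10186 genes tested, 2188 were called (21.5%), 903 higher in HP1βKO (8.87%) and 1285 lower (12.6%). Of these, 375 differed at least 2-fold (135 higher and 240 lower), 82 at least 4-fold (29 and 53), 25 at least 8-fold (7 and 18) and 7 at least 16-fold (1 and 6). Not all of the 2188 called genes passed again in each of the 4 fits that left out 1 array. In the fits without HP1αKO 1 or HP1αKO 2, named genes that lost their call all had the same standard error, 0.18. Passing there thus depended on the size of the difference alone, and a gene of at least 2-fold was bound to pass. In the comparisons that follow, every gene named with its difference as higher or lower passed these 4 fits unless stated. For large differences this adds no support. Of 295 genes followed singly, 166 did not pass with the spread of all 12 arrays. A gene high in 1 group only could enter the test through that group, so the counts and medians of lists over tested genes are descriptions, and values without a floor stand beside them where they differ. The excess of lower calls depended on the scaling: with each array centred on its median, 1295 genes were higher and 1225 lower, so that the share of higher calls moved from 41.3% to 51.4%. The count also moved with single arrays: it was 1301 without HP1αKO 1, 1284 without HP1αKO 2, 3898 without HP1βKO 1 and 2933 without HP1βKO 2, and without HP1βKO 2 the share of higher calls was 52.1%. With the spread taken from all 12 arrays 421 genes passed, each of them among the 2188. The median difference over all genes tested was -0.03 as deposited and 0.02 after centring. The groups did not overlap for 6483 genes (63.6%), which is the background for that description. The mean of 1 group lay under the floor in 434 of the called genes, and there the difference was read against a signal close to the background of the array.

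**Figure D1:**
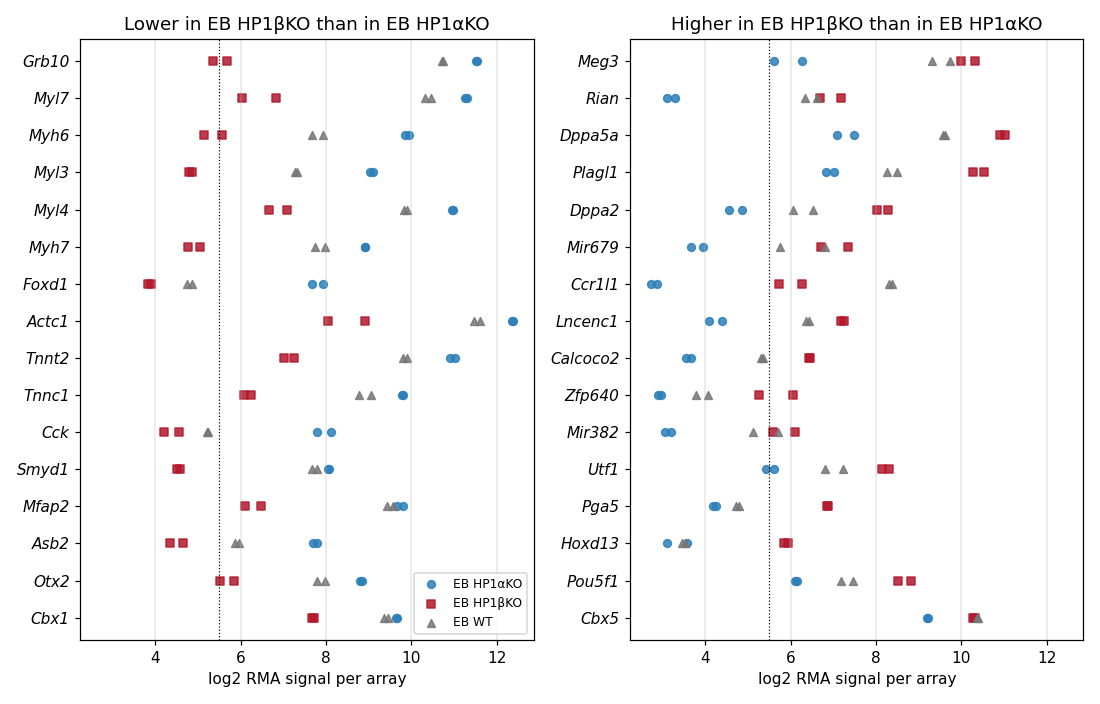
Log2 RMA signal (x axis) of the 15 genes furthest below (left) and the 15 furthest above (right) in EB HP1βKO relative to EB HP1αKO, with Cbx1 and Cbx5 in the bottom row. Each point is 1 array and the dotted line is the floor of 45 (log2 5.49). The blue circles of HP1αKO and the red squares of HP1βKO do not overlap in any row, with Grb10 at 11.52 and 11.53 against 5.69 and 5.35. Grey triangles are EB WT.

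The genes of the contractile apparatus of cardiomyocytes were lower in HP1βKO EBs. The atrial light chain Myl7 lay at 11.27 and 11.31 on the HP1αKO arrays and at 6.82 and 6.03 on the HP1βKO arrays, with 10.46 and 10.32 in WT. The alpha heavy chain Myh6 lay at 9.84 and 9.95 against 5.55 and 5.13. Both were high on the 2 HP1αKO arrays, without overlap, at 29.1-fold (-4.86 ± 0.22, adjusted p = 1.09e-05) and 23.4-fold (-4.55 ± 0.14, adjusted p = 3.58e-06). All 6 cardiac myosin genes on the array were tested and all 6 were lower, with a median difference of -4.16 beside -0.03 over all genes. In 4 of the 6, Myh6 among them, the HP1βKO mean lay under the floor, so the fold was read against a signal close to background. The others were Myl3, Myl4 and Myh7, between -4.23 and -4.01, and the ventricular light chain Myl2, which lay at 6.70 and 7.00 against 3.83 and 3.89 (-2.99 ± 0.12, adjusted p = 5.62e-06). WT lay between the knockouts for all 6, at 7.32 and 7.27 for Myl3 where HP1αKO had 9.10 and 9.03 and HP1βKO 4.87 and 4.80.

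The thin filament, which carries the calcium switch of contraction, showed the same direction with a wider range. Cardiac actin Actc1 lay at 12.38 and 12.35 in HP1αKO and at 8.91 and 8.06 in HP1βKO (-3.88 ± 0.24, adjusted p = 3.91e-05). Troponin T (Tnnt2) lay at 11.03 and 10.90 against 7.26 and 7.01, and troponin C (Tnnc1) at 9.77 and 9.80 against 6.24 and 6.08. None of these groups overlapped. Of 10 thin filament genes on the array 8 were tested and 8 were lower, with a median of -1.81 over those tested and -0.89 over all 10. The smallest differences were those of genes that are also used outside the heart, tropomyosin Tpm1 (-0.63 ± 0.09) and the pointed-end capper Tmod1 (-0.61 ± 0.09), for which a dimmer feature gave 0.16. With the spread taken from all 12 arrays, 5 of the 8 passed.

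Titin, the Z-disc, the M-band and their chaperones followed. Of 20 such genes on the array 13 were tested, all 13 were lower, and all 13 passed on 12 arrays too. Of these 13, 9 had their HP1βKO mean under the floor and so were tested through HP1αKO alone. Without a floor 15 of all 20 were lower. The median was -1.87 over those tested and -1.56 over all 20. The muscle methyltransferase Smyd1 lay at 8.07 and 8.04 in HP1αKO and at 4.57 and 4.51 in HP1βKO (-3.52 ± 0.08, adjusted p = 1.77e-06). Its partner in myosin folding, Unc45b, lay at 7.74 and 7.72 against 4.85 and 5.03. The myosin-binding protein Mybpc3 (-2.80 ± 0.12), the Z-disc crosslinker Actn2 (-2.55 ± 0.15), the M-band protein Myom1 (-2.28 ± 0.09) and the intermediate filament desmin, Des (-1.74 ± 0.10), were lower as well. Titin itself (Ttn) lay near the floor in HP1αKO, at 5.29 and 5.61, and at 3.72 and 3.90 in HP1βKO.

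**Figure D2:**
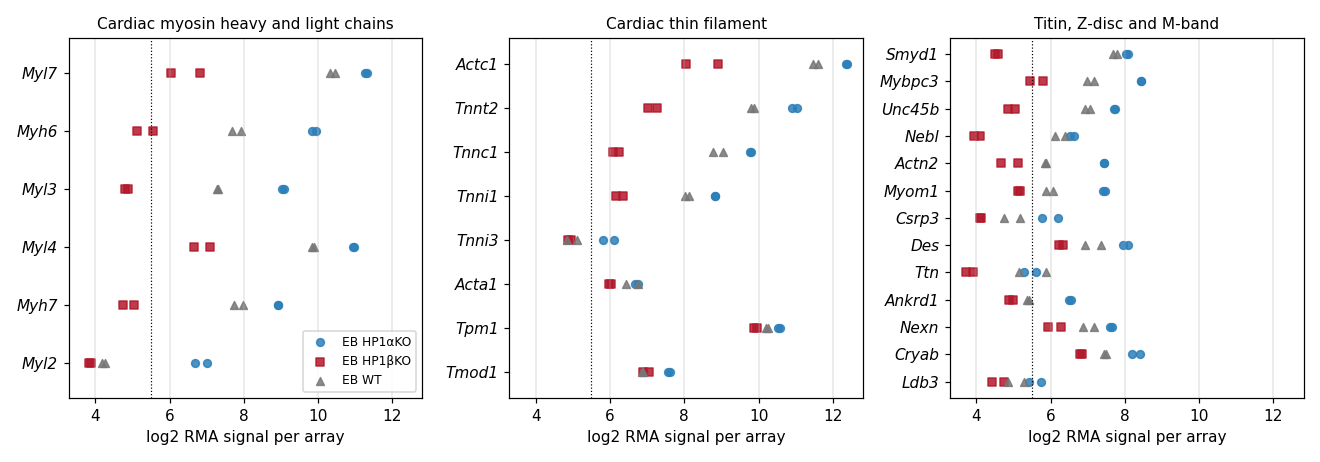
Log2 RMA signal per array (x axis) of the tested cardiac myosin genes (left), thin filament genes (middle) and titin, Z-disc and M-band genes (right), ordered by difference, with symbols as in the legend and the floor of log2 5.49 dotted. In every row both HP1βKO arrays lie to the left of both HP1αKO arrays, from 12.38 and 12.35 down to 8.91 and 8.06 for Actc1.

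Many sarcomere genes are known targets of serum response factor, which binds the CArG box and acts with myocardin. RefSeq promoters, from 250 bases before to 50 after a start, were searched for a CArG box on both strands. Of the 25 sarcomere genes called lower that have such a promoter, 7 held a box (28%). The share was 1.67% among 8251 tested genes, 2.77% among 1010 genes called lower and 1.81% among all 27025 genes in the table. A MEF2 site, searched in the same way, was found in 2 of the 25 (8%), beside 0.46%, 1.09% and 0.64%. Every sarcomere gene tested was called lower, so these shares cannot tell a trait of sarcomere promoters from a trait of lower genes. A match describes letters in this window and is not evidence of binding. The windows of 4 of the 7 genes are shown because these genes lie among the larger differences, in assembly GRCm38.p6 and on the strand of the gene, with the CArG box in capitals.
Myl7, chr11:5898809-5898868, minus strand: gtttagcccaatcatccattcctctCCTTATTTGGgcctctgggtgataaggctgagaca
Myl3, chr9:110763568-110763627, plus strand: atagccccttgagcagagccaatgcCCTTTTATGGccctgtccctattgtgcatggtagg
Actc1, chr2:114052888-114052947, minus strand: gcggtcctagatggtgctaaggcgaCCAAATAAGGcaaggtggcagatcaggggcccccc
Nebl, chr2:17462984-17463043, minus strand: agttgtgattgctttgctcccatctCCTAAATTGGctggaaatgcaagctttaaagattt
The last base of the box lies 52 bases before the start of Myl7, 76 before that of Myl3, 38 before that of Actc1 and 153 before that of Nebl. Nebl, which encodes the Z-disc protein nebulette, lay at 6.62 and 6.53 in HP1αKO and at 3.92 and 4.10 in HP1βKO (-2.56 ± 0.10, adjusted p = 5.62e-06). The other 3 genes with a box were Acta1, Ldb3 and Myom1.

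Genes for calcium release, gap junctions and conduction were read next. Of 18 on the array 11 were tested, 10 were lower and 0 were higher, with a median of -1.21. Of these 10, 7 had their HP1βKO mean under the floor and so were tested through HP1αKO alone. Without a floor 12 of all 18 were lower, with a median of -0.59, and without either HP1αKO array the count of lower genes was 8. The gap junction gene Gja5 lay at 7.48 and 7.22 in HP1αKO, at 4.89 and 5.00 in HP1βKO and at 4.61 and 4.53 in WT, so that HP1αKO stood above both other genotypes. The difference was -2.40 ± 0.11 (adjusted p = 1.05e-05). The potassium channel Kcnj5 (-1.84 ± 0.09), the calcium channel subunit Cacna2d2 (-1.82 ± 0.09), the ryanodine receptor Ryr2 (-1.49 ± 0.12) and the calcium pump Atp2a2 (-0.56 ± 0.08) were lower. Asb2, a ubiquitin ligase subunit of muscle that was filed with them but handles no calcium, lay at 7.78 and 7.69 against 4.34 and 4.64 (-3.25 ± 0.12, adjusted p = 5.62e-06). Of 11 cardiac hormone and metabolism genes on the array 5 were tested and 3 were lower, 2 of them with HP1βKO under the floor, and over all 11 the median was -0.28 beside -1.43 over those tested. Without HP1βKO 1 the count was 5. The differences were led by the endoplasmic reticulum protein Tecrl (-3.10 ± 0.17) and Popdc2 (-2.06 ± 0.13).

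The transcription factors that specify the heart did not all share this direction and moved both ways. Of 13 tested, 6 were higher and 3 lower, with a median of 0.44, which was -0.06 over all 18 on the array. Without a floor 6 of these 18 were higher and 5 lower, and on 12 arrays 2 of the 13 were higher and 2 lower. Myocardin, Myocd, the cofactor of serum response factor, lay at 6.94 and 7.18 in HP1αKO, at 4.33 and 4.42 in HP1βKO and at 6.53 and 6.52 in WT (-2.68 ± 0.11, adjusted p = 6.25e-06). Mef2c, a factor of the muscle program, lay at 7.90 and 7.75 against 6.22 and 6.44 (-1.49 ± 0.11, adjusted p = 8.98e-05). Both were low on the 2 HP1βKO arrays alone. Nkx2-5, the homeobox factor of cardiac progenitors, lay at 6.88 and 6.75 against 6.12 and 6.41, and its difference of -0.55 ± 0.12 passed with all 4 arrays (adjusted p = 0.0151) but not without HP1αKO 1 (adjusted p = 0.054). The T-box repressors Tbx2 and Tbx3 were higher, Tbx2 at 6.33 and 6.21 in HP1αKO against 7.29 and 7.55 in HP1βKO (1.16 ± 0.11, adjusted p = 0.000368). The GATA cofactor Zfpm2 (1.01 ± 0.11) and Hand1 (0.78 ± 0.17) were higher. Gata4 (0.44 ± 0.10) and Tbx20 (0.50 ± 0.11) were higher with 4 arrays, but Gata4 did not pass without HP1αKO 1 (adjusted p = 0.268) nor Tbx20 without HP1αKO 2 (adjusted p = 0.0687). Isl1 of the second heart field did not pass (-0.31 ± 0.10, adjusted p = 0.0744). Genes of the epicardium, the outer layer of the heart, were higher in 3 of 6 tested, with a median of 0.72 (0.17 over all 10 on the array): Wt1 (1.23 ± 0.20), Upk3b (1.60 ± 0.08) and Aldh1a2.

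Other muscle types were read beside the heart. Of 16 skeletal muscle genes on the array only 2 lay above the floor and neither was called. Of 17 smooth muscle and actomyosin genes tested, 6 were lower and 1 higher, and on 12 arrays 1 was lower and 0 higher. The lowest difference of this list was that of Myocd, which was counted with the cardiac factors too. Without a floor 5 of all 21 on the array were lower and 1 higher. Calponin, Cnn1, lay at 7.18 and 7.28 in HP1αKO and at 4.95 and 4.76 in HP1βKO (-2.37 ± 0.10, adjusted p = 7.63e-06), and Tagln differed by -0.58 ± 0.13. On 12 arrays neither passed (adjusted p = 0.0533 for Cnn1 and 0.809 for Tagln).

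Several genes of the pluripotent state were higher in HP1βKO EBs. Pou5f1, the factor Oct4, lay at 6.11 and 6.15 in HP1αKO, at 8.81 and 8.51 in HP1βKO and at 7.19 and 7.46 in WT. Nanog lay at 6.35 and 6.32 against 8.92 and 8.74, with WT at 7.51 and 7.74. Both HP1βKO arrays were above both HP1αKO arrays, with WT between them, at 5.78-fold for Pou5f1 (2.53 ± 0.11, adjusted p = 1.05e-05) and 5.64-fold for Nanog (adjusted p = 5.62e-06). Dppa2, an early embryonic chromatin factor, lay at 4.87 and 4.56 against 8.29 and 8.02 (3.44 ± 0.14, adjusted p = 5.96e-06). Its partner Dppa4 (1.93 ± 0.10) and the ESC chromatin protein Utf1 (2.71 ± 0.11) were higher. Without a floor 8 of all 16 core pluripotency genes on the array were higher and 3 lower, with a median of 0.36. Of the 15 tested, 7 were higher, 4 of them with the HP1αKO mean under the floor, and 3 were lower. All 10 passed on 12 arrays as well, and the list median over those tested was 0.15. Without HP1βKO 1 the count of lower genes was 5. The 3 lower genes were Sox2, also a neural factor, at 9.98 and 9.95 against 8.52 and 8.22 (-1.60 ± 0.11, adjusted p = 8.33e-05), and the let-7 antagonists Lin28a (-1.24 ± 0.09) and Lin28b (-1.55 ± 0.12), which stay on beyond the pluripotent stage.

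Of 13 tested genes of naive pluripotency 9 were higher and 0 lower, with a median of 0.76. Of these 9, 5 had their HP1αKO mean under the floor. Without a floor 11 of all 18 on the array were higher and 0 lower, with a median of 0.64. Dppa5a lay at 7.48 and 7.09 in HP1αKO, at 10.91 and 11.02 in HP1βKO and at 9.56 and 9.62 in WT (3.68 ± 0.13, adjusted p = 5.62e-06). Zfp42, the ESC marker Rex1, lay at 3.70 and 3.64 against 6.26 and 5.83 (2.38 ± 0.14, adjusted p = 3.51e-05), so that it stood above the floor on the HP1βKO arrays alone of these 4. The nuclear receptors Nr0b1 (1.91 ± 0.14) and Esrrb (1.58 ± 0.14) and the factor Tfcp2l1 (1.40 ± 0.10) were higher, and on 12 arrays 3 of the 9 passed. Klf4 did not pass (0.28 ± 0.18, adjusted p = 0.316). The long noncoding RNA Lncenc1, known from naive ESCs, lay at 4.10 and 4.39 against 7.24 and 7.17 (2.96 ± 0.11, adjusted p = 5.62e-06). Of 11 formative and primed genes 5 were lower and 1 higher, led by Otx2, which lay at 8.84 and 8.79 in HP1αKO, at 5.84 and 5.51 in HP1βKO and at 7.78 and 7.97 in WT (-3.14 ± 0.12, adjusted p = 5.62e-06). A list of 11 EB genes that the study named had 6 higher and 3 lower, but the study picked them from these very samples, so their direction is no independent evidence.

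**Figure D3:**
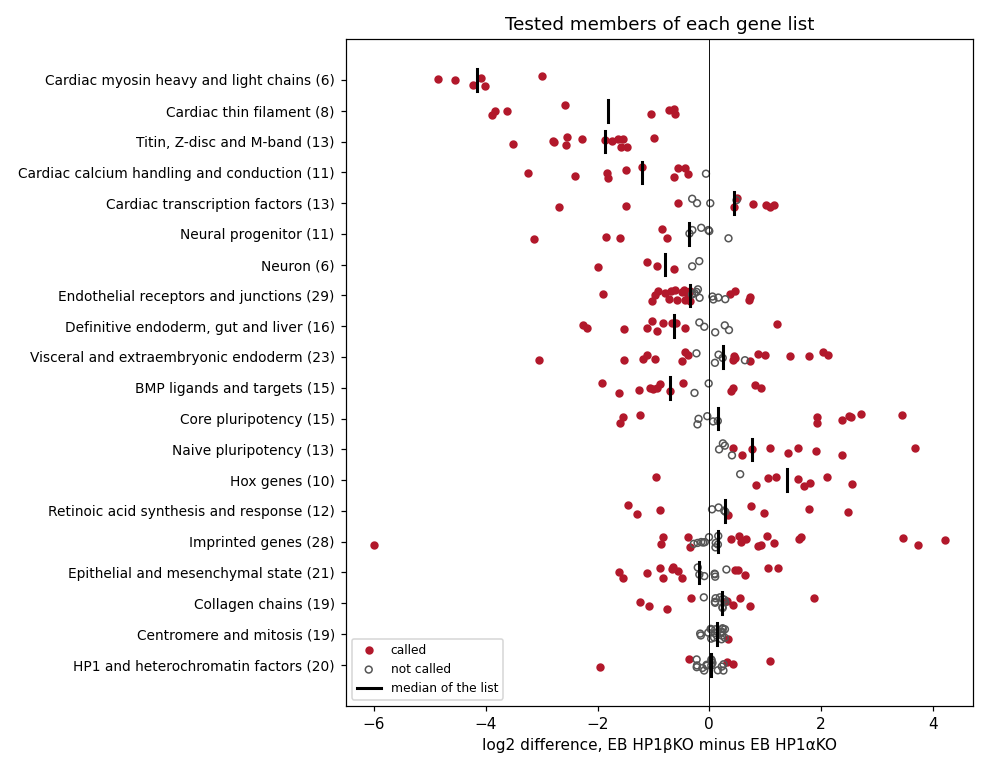
Log2 difference, EB HP1βKO minus EB HP1αKO (x axis), of every tested member of 20 gene lists, with the number tested in parentheses. Filled points were called and open points were not, the black bar is the list's median, and points are spread vertically only for legibility. The 3 sarcomere lists lie to the left of 0 in every tested member, with medians of -4.16, -1.81 and -1.87. Without a floor these medians were -4.16, -0.89 and -1.56. The Hox list has its median at 1.40 (0.41 over all 37 genes without a floor).

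Imprinted genes, expressed from 1 parental allele, held the extremes on both sides. Of 28 tested, 13 were higher and 5 lower, with a median of 0.16, and without either HP1αKO array 3 were lower. Grb10, an adaptor that restrains insulin and growth factor signalling, lay at 11.52 and 11.53 in HP1αKO, at 5.69 and 5.35 in HP1βKO and at 10.72 and 10.74 in WT. HP1βKO alone was low, by 64.0-fold (-6.00 ± 0.12, adjusted p = 8.05e-07), the largest difference of all genes called here. The growth-suppressing zinc finger gene Plagl1 lay at 6.84 and 7.02 against 10.52 and 10.28, with WT at 8.27 and 8.50 (3.48 ± 0.11, adjusted p = 4.23e-06). The placental growth regulator Phlda2 (1.64 ± 0.12), the antisense noncoding RNA Airn (1.60 ± 0.16), the retrotransposon-derived Peg10 (1.17 ± 0.09) and the zinc finger gene Peg3 (0.65 ± 0.09) were higher. Igf2 and Mest, among the strongest signals, did not pass, with Igf2 at 12.18 and 12.12 against 12.36 and 12.25 (0.15 ± 0.09, adjusted p = 0.267). With the spread of all 12 arrays 5 imprinted genes were higher and 1 lower. In undifferentiated ESCs Grb10 lay at 9.72 and 8.59 in HP1αKO and at 7.27 and 7.52 in HP1βKO.

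The Dlk1-Dio3 region of chromosome 12 was taken up because Meg3 and Rian stood among the largest rises, so its selection rests on these values. From the maternal chromosome the region makes the noncoding RNAs Meg3 and Rian, small nucleolar RNAs and a large group of microRNAs, and from the paternal one the protein genes Dlk1, Rtl1 and Dio3. The mature microRNAs of 4 of its genes with large differences are shown, 5′ to 3′, from RefSeq on GRCm38.p6, all on the plus strand, with the seed (bases 2 to 8) in capitals.
miR-679-5p, chr12:109715587-109715608: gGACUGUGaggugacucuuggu
miR-679-3p, chr12:109715624-109715645: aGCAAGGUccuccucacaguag
miR-382-5p, chr12:109733781-109733802: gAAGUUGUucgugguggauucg
miR-382-3p, chr12:109733819-109733840: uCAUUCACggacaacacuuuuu
miR-487b-5p, chr12:109727347-109727367: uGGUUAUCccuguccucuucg
miR-329-5p, chr12:109713503-109713524: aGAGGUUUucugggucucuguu
miR-329-3p, chr12:109713541-109713562: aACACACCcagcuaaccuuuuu
The 9 microRNA genes called in the region matched 17 mature sequences with 17 distinct seeds, so none of them share a seed.

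Meg3 lay at 6.27 and 5.61 in HP1αKO, at a mean of 10.16 in HP1βKO, with 10.32 on HP1βKO 2, and at 9.73 and 9.31 in WT. Rian lay at 3.30 and 3.10 against 6.70 and 7.19, with WT at 6.62 and 6.33. For both, the 2 HP1αKO arrays were the low ones and WT lay near HP1βKO. The differences were 4.22 ± 0.21 for Meg3 (18.6-fold, adjusted p = 1.48e-05) and 3.74 ± 0.16 for Rian (13.4-fold, adjusted p = 8.51e-06), and Meg3 did not pass with the spread of all 12 arrays (adjusted p = 0.101). Mir679, whose sequences are given above, lay at 3.95 and 3.68 against 6.71 and 7.33 (3.21 ± 0.20, adjusted p = 3.91e-05), and Mir382 at 3.05 and 3.21 against 5.59 and 6.10 (2.71 ± 0.16, adjusted p = 3.55e-05). Mir487b (2.47 ± 0.19) and Mir329 (2.00 ± 0.16) were higher, as was the small nucleolar RNA DQ267102 (2.87 ± 0.12). The features read total RNA over the precursor genes and the level of the mature microRNA was not measured. In undifferentiated ESCs Meg3 lay at 5.28 on HP1αKO 1 and at 9.37 and 9.52 in HP1βKO, and Rian at 3.10 against 6.37 and 5.66. On ESC HP1αKO 2, where Cbx5 went against the label, Meg3 lay at 9.36 and Rian at 6.01.

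Over the whole region, 48 genes were on the array, 15 were tested, 13 were higher and 0 lower. Of its 40 microRNA genes 38 had both HP1βKO arrays above both HP1αKO arrays, most of them below the floor, with a median difference of 0.60. Of 262 microRNA genes elsewhere 75 did so, with a median of 0.08, and of the 31 tested 4 were higher. The median signal of the region's microRNA genes was 3.03 and 3.08 on the HP1αKO arrays, 4.14 and 4.57 on the HP1βKO arrays and 4.24 and 3.77 in WT. The protein genes expressed from the paternal chromosome differed among themselves, and Dio3 lay above the microRNA median of 0.60. Dlk1, an inhibitor related to Notch ligands, lay at 11.35 and 11.29 against 11.50 and 11.37 (0.12 ± 0.09, adjusted p = 0.413), Rtl1 stayed below the floor, and the deiodinase Dio3 was higher by 0.88 ± 0.13 (adjusted p = 0.0026).

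**Figure D4:**
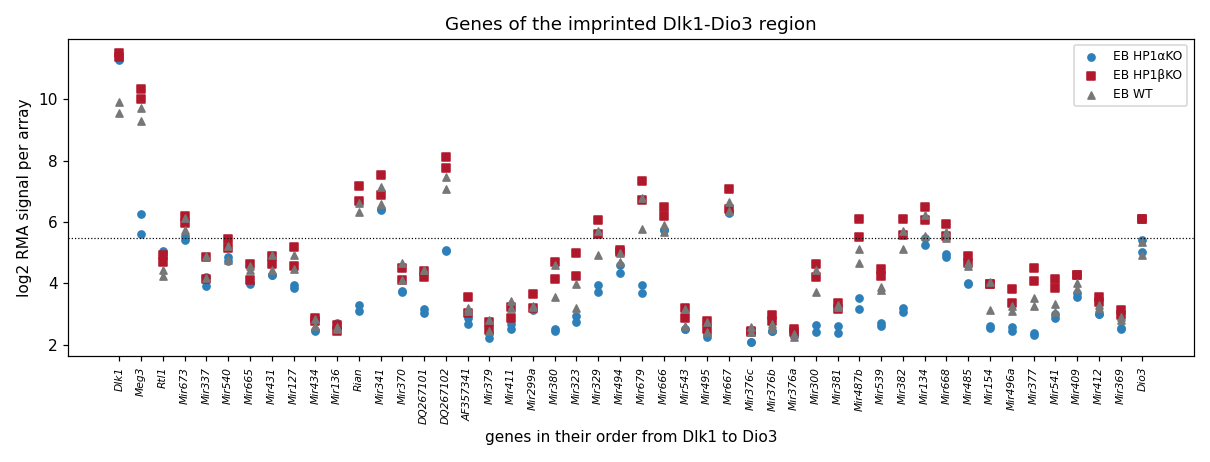
Log2 RMA signal (y axis) of the genes of the imprinted Dlk1-Dio3 region on each EB array, in their order along the chromosome (x axis, not to scale). The floor of log2 5.49 is dotted, and genes below it on all 4 knockout arrays were not tested. Red squares (HP1βKO) lie above blue circles (HP1αKO) in 45 of 48 genes, as in Rian, with 3.30 and 3.10 in HP1αKO and 6.70 and 7.19 in HP1βKO.

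Hox genes above the floor stood higher in HP1βKO EBs for the most part. Hox genes encode the homeodomain factors that mark position along the body axis, with high numbers used at its posterior end. Of 37 on the array 10 were tested, and 8 were higher and 1 lower, with a median of 1.40. All 8 had their HP1αKO mean under the floor, so they were tested through the group in which they were high. Without a floor 15 of all 37 were higher and 1 lower, and the median was 0.41. The 27 others stayed below the floor on all 4 arrays. Hoxd13 lay at 3.57 and 3.11 in HP1αKO, at 5.93 and 5.85 in HP1βKO and at 3.53 and 3.47 in WT (2.55 ± 0.15, adjusted p = 3.38e-05). Hoxa9 lay at 4.40 and 4.54 against 6.59 and 6.56, with WT at 4.69 and 4.46 (2.11 ± 0.09, adjusted p = 8.6e-06). For both, HP1βKO stood above the floor while HP1αKO and WT stood below it. Hoxa11, Hoxa13, Hoxd9, Hoxd10 and Hoxd11 differed by 1.04 to 1.80 in the same direction, and Hoxd1 by 0.84 ± 0.09. The lower gene was the anterior Hoxb2, at 6.30 and 6.96 against 5.85 and 5.52 (-0.95 ± 0.21, adjusted p = 0.0171). All 8 higher Hox genes passed on 12 arrays.

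Of 16 hindlimb, allantois and limb-bud factors 5 were higher and 5 lower. Pitx1, the homeobox factor of the hindlimb, lay at 7.09 and 6.89 in HP1αKO, at 8.93 and 8.97 in HP1βKO and at 6.75 and 6.75 in WT (1.96 ± 0.10, adjusted p = 1.58e-05). Tbx4, which acts with it, lay at 6.85 and 6.74 against 8.79 and 8.25 (1.72 ± 0.16, adjusted p = 0.000364), and Prrx1 of limb mesenchyme was higher by 1.26 ± 0.10. The limb signals Shh (-1.79 ± 0.09) and Fgf10 (-1.30 ± 0.11), both also used elsewhere in the embryo, were lower. In retinoic acid metabolism 5 of 12 were higher and 3 lower. Aldh1a2, which makes retinoic acid in mesoderm, lay at 5.82 and 5.95 against 8.45 and 8.30, with WT at 5.68 and 5.82 (2.49 ± 0.10, adjusted p = 5.96e-06). The retinol carrier Rbp4 (1.79 ± 0.14), the retinal reductase Dhrs3 (0.98 ± 0.09) and the receptor Rarg (0.75 ± 0.10) were higher. The binding proteins Crabp1 (-1.29 ± 0.09) and Crabp2 (-1.45 ± 0.09) and the degrading enzyme Cyp26a1 (-0.89 ± 0.09) were lower.

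Among signalling pathways, genes of BMP signalling were lower for most members: of 15 tested, 9 were lower and 4 higher, with a median of -0.70 (-0.35 over all 19 on the array), and 4 lower ones passed on 12 arrays. Without either HP1αKO array 2 were higher. Of the ligands, Bmp2 lay at 6.81 and 6.67 in HP1αKO, at 5.94 and 5.52 in HP1βKO and at 7.13 and 7.25 in WT (-1.01 ± 0.14, adjusted p = 0.00219), and Bmp5 (-1.26 ± 0.22) and Bmp7 (-1.06 ± 0.09) were lower. Of the targets, Id4 lay at 7.53 and 7.46 against 5.60 and 5.55 (-1.92 ± 0.09, adjusted p = 9.9e-06), Id2 (-0.93 ± 0.10) and Id3 (-0.87 ± 0.11) were lower, and Msx1 (0.93 ± 0.11) and the pseudoreceptor Bambi (0.82 ± 0.09) were higher. In FGF signalling 7 of 17 were lower and 0 higher, 3 of these 7 with HP1βKO under the floor, and 2 were lower on 12 arrays. Over all 25 on the array without a floor, 5 were lower and 1 higher, with a median of -0.21 beside -0.28 over those tested. Fgf15 lay at 9.24 and 9.17 in HP1αKO, at 7.31 and 7.31 in HP1βKO and at 9.17 and 9.37 in WT (-1.90 ± 0.08, adjusted p = 9.9e-06), and the feedback inhibitor Spry2 was lower by -1.06 ± 0.09.

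In the Nodal pathway, which patterns mesendoderm, 2 of 8 were higher and 3 lower, with 1 lower without HP1αKO 2. Nodal itself lay at 6.06 and 5.77 in HP1αKO and at 7.00 and 6.78 in HP1βKO (0.98 ± 0.13, adjusted p = 0.00151). The related ligand Gdf3 lay at 4.13 and 4.49 against 6.27 and 6.21 (1.93 ± 0.13, adjusted p = 5.35e-05). The co-receptor Cfc1 lay at 5.59 and 5.84 against 4.47 and 4.55, with WT above both at 7.90 and 8.08 (-1.21 ± 0.11, adjusted p = 0.000253). Nodal did not pass on 12 arrays (adjusted p = 0.234). Wnt genes were split, with 7 of 23 higher and 9 lower, and with 1 higher and 2 lower on 12 arrays. The secreted antagonist Dkk1 (-1.25 ± 0.08) and the pathway target Axin2 (-0.62 ± 0.09) were lower, and Dkk2 (1.38 ± 0.11) and the Wnt-enhancing Rspo3 (0.98 ± 0.09) were higher. On 12 arrays Axin2 (adjusted p = 0.428), Dkk2 (adjusted p = 0.157) and Rspo3 (adjusted p = 0.347) did not pass.

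Of 11 streak and early mesoderm genes 3 were higher and 4 lower, with 6 higher without HP1βKO 1. The receptor Pdgfra of paraxial and lateral mesoderm lay at 9.17 and 9.14 in HP1αKO and at 10.33 and 10.23 in HP1βKO (1.12 ± 0.09, adjusted p = 0.000132), and Foxf1 of lateral plate mesoderm was higher by 1.03 ± 0.13. The forkhead genes Foxc1 (-1.03 ± 0.09) and Foxc2 (-1.53 ± 0.11) were lower. Foxd1, a forkhead factor of kidney stroma and other tissues, lay at 7.67 and 7.92 in HP1αKO, at 3.91 and 3.82 in HP1βKO and at 4.74 and 4.87 in WT, so that HP1αKO alone stood above the floor (-3.93 ± 0.11, adjusted p = 2.61e-06). Of 4 kidney and intermediate mesoderm genes tested 3 were lower, among them Eya1 (-1.85 ± 0.13) and Sall1 (-1.53 ± 0.08). Wt1, which was counted with the epicardium too, was higher. A group mean lay under the floor in 2 of the 4. Over all 11 on the array without a floor, 5 were lower and 1 higher, with a median of -0.34 beside -1.03 over those tested.

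Neural genes were lower where they were called. Of 11 progenitor genes 5 were lower and 0 higher, 2 of these 5 with HP1βKO under the floor. The 5 include Otx2, which was counted with the formative and primed genes too. Of 6 neuronal genes 4 were lower and 0 higher, 3 of these 4 with HP1βKO under the floor. The neuronal median was -0.79 over those tested and -0.23 over all 18 on the array. Pax6, a factor of neural progenitors and the eye, lay at 5.65 and 6.07 in HP1αKO and at 3.98 and 4.04 in HP1βKO (-1.85 ± 0.14, adjusted p = 0.000113). Stmn2, a tubulin-binding protein of growing axons, lay at 7.29 and 7.39 against 5.52 and 5.18, with WT at 7.70 and 7.87 (-1.99 ± 0.12, adjusted p = 4.28e-05). Neuronal tubulin, Tubb3 (-0.94 ± 0.15), was lower. Sox1, a definitive neural marker, did not pass (-0.30 ± 0.10, adjusted p = 0.0755). Cck, the peptide hormone cholecystokinin, lay at 7.78 and 8.11 against 4.21 and 4.55 (-3.56 ± 0.15, adjusted p = 7.63e-06).

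Endoderm was read in its definitive and visceral kinds. Of 16 genes of definitive endoderm, gut and liver 10 were lower and 1 higher, with a median of -0.64 (-0.35 over all 20 on the array), and 6 of the lower ones passed on 12 arrays. Foxa2 lay at 6.93 and 7.04 in HP1αKO and at 5.70 and 6.02 in HP1βKO (-1.12 ± 0.12, adjusted p = 0.000594), and Foxa1 (-1.52 ± 0.13), the gut peptide Pyy (-2.18 ± 0.13) and the chemokine receptor Cxcr4, which is also found outside endoderm (-2.25 ± 0.08), were lower. The higher gene was Cdx2 (1.21 ± 0.14), which is used in hindgut, trophoblast and posterior mesoderm. Of 23 visceral and extraembryonic endoderm genes 10 were higher and 8 lower, with 5 lower without HP1αKO 2. The apolipoprotein Apoa1 lay at 5.34 and 5.57 against 7.74 and 7.24, with WT at 6.90 and 7.05 (2.03 ± 0.17, adjusted p = 0.000168), and Apob (2.13 ± 0.14) and Gata6 (1.00 ± 0.10) were higher. Alpha-fetoprotein, Afp, was lower, at 7.62 and 7.57 against 6.55 and 6.26 (-1.19 ± 0.11, adjusted p = 0.000363), as was vitronectin, Vtn, at 7.13 and 7.34 against 4.25 and 4.11. Transthyretin, Ttr, did not pass (0.64 ± 0.19, adjusted p = 0.0557).

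Of 29 endothelial genes 16 were lower and 4 higher, with a median of -0.35, but 10 were lower without HP1αKO 1, 9 without HP1αKO 2 and 3 on 12 arrays, and the defining markers were not called. Cdh5 lay at 7.68 and 7.65 in HP1αKO and at 7.53 and 7.18 in HP1βKO (adjusted p = 0.115), Pecam1 differed by 0.06 ± 0.09 (adjusted p = 0.705) and Kdr by 0.29 ± 0.09 (adjusted p = 0.0609). The Notch target Hey1, used in heart as well as vessels, was lower, at 8.08 and 8.12 against 6.24 and 6.15 (-1.91 ± 0.09, adjusted p = 1.05e-05), and the angiopoietin receptor Tek differed by -0.97 ± 0.10. In primitive blood 2 of 9 were higher and 1 lower, and 0 in either direction without HP1αKO 1. The embryonic globins Hbb-bh1 (0.33 ± 0.11, adjusted p = 0.075) and Hba-x (0.29 ± 0.12, adjusted p = 0.114) did not pass. Of 23 macrophage and leukocyte genes on the array only Cd68 was tested, and Ptprc and Csf1r lay between 3.36 and 4.29 on the 4 arrays. Of 6 chemokines and receptors 3 were lower and 1 higher. The chemokine Ccl3 lay at 7.89 and 7.71 in HP1αKO, at 5.49 and 5.21 in HP1βKO and at 4.62 and 4.84 in WT (-2.45 ± 0.12, adjusted p = 1.48e-05). The chemokine receptor-like gene Ccr1l1 lay at 2.86 and 2.73 against 6.26 and 5.72, with WT above both at 8.36 and 8.31 (3.19 ± 0.17, adjusted p = 1.89e-05), and did not pass on 12 arrays (adjusted p = 0.295).

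Of 21 genes of the epithelial and mesenchymal state, read as 1 list, 9 were lower and 5 higher, of which 3 lower ones passed on 12 arrays. E-cadherin, Cdh1, lay at 9.08 and 9.09 in HP1αKO, at 8.28 and 8.13 in HP1βKO and at 9.22 and 9.32 in WT (-0.88 ± 0.09, adjusted p = 0.000524). The claudin Cldn4 (-1.62 ± 0.09) and the epithelial splicing factor Esrp1 (-1.54 ± 0.10) were lower. Twist2 (1.24 ± 0.14) and Zeb1 (0.63 ± 0.11) were higher, and so was the epithelial factor Grhl3 (1.06 ± 0.10). Feeder fibroblasts and other fibroblasts were read through collagens and matrix genes, which moved both ways. Of 19 collagen chains 5 were higher and 4 lower, and of 15 other fibroblast matrix genes 6 were higher and 4 lower. Without either HP1αKO array 3 collagens and 2 other matrix genes were higher, and without HP1βKO 1 10 collagens were. On 12 arrays 1 collagen was higher and 3 lower, and 0 other matrix genes were higher and 1 lower. Col3a1 lay at 9.68 and 9.89 against 10.61 and 10.43, Postn did not pass (-0.01 ± 0.12, adjusted p = 0.963), and Lum lay at 7.91 and 8.05 against 6.85 and 6.34. The mean signal of the 23 collagen genes on the array lay between 6.67 and 6.71 in HP1αKO and between 6.73 and 6.80 in HP1βKO, and that of the other matrix genes between 7.08 and 7.11 and between 6.91 and 6.98. The part of such cells in the results above was not tested. Mfap2, a microfibril protein, was lower by 10.9-fold, at 9.65 and 9.81 against 6.09 and 6.49, with WT at 9.57 and 9.43 (-3.44 ± 0.14, adjusted p = 6.54e-06).

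Housekeeping and stress programs were read beside these groups. Over all genes tested 21.5% were called. The share was 5.26% for centromere and mitosis genes, 25% for heterochromatin factors and 28.6% for p53 targets. It was 30% for glycolysis and hypoxia, 31.25% for the amino acid response, 41.7% for interferon genes and 66.7% for carbonic anhydrases. Shares near 21.5% are not read as a result about a list. Of 19 centromere and mitosis genes 1 was higher and 0 lower, with a median of 0.14, and 0 were called without either HP1αKO array and 5 were higher without HP1βKO 2. Of 20 HP1 and heterochromatin factors 5 were called, the targeted Cbx1 and Cbx5 and 3 with differences of at most 0.42 in size, and without either HP1αKO array 2 were called, while the methyltransferase Setdb1 (-0.23 ± 0.09, adjusted p = 0.117) and the corepressor Trim28 (0.15 ± 0.09, adjusted p = 0.255) did not pass. Of 14 direct p53 targets 4 were lower and 0 higher, with 2 lower without HP1αKO 1, 8 without HP1βKO 1 and Btg2 at -0.74 ± 0.08. In the amino acid response 5 of 16 were lower and 0 higher, but 1 was lower without HP1αKO 1, 3 without HP1αKO 2 and 10 without HP1βKO 1. Among the 5 was the factor Atf4 itself, at 7.67 and 7.54 in HP1αKO and at 6.39 and 6.37 in HP1βKO (-1.22 ± 0.09, adjusted p = 0.000103). Glycolysis and hypoxia genes had 3 of 20 higher and 3 lower, with 1 lower without HP1αKO 1. Of 12 interferon and antigen presentation genes 4 were higher and 1 lower, and on 12 arrays 0 were higher and 0 lower. Carbonic anhydrases, which interconvert carbon dioxide and bicarbonate, were lower in 4 of 6, with a median of -1.09 that was -0.10 over all 13 on the array, and with Car4 at 9.67 and 9.51 against 7.59 and 7.13 and WT at 10.33 and 10.50 (-2.23 ± 0.15, adjusted p = 6.9e-05).

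The remaining large rises lay outside these lists. The autophagy receptor Calcoco2 stood at 3.68 and 3.54 in HP1αKO, at 6.45 and 6.42 in HP1βKO and at 5.32 and 5.36 in WT (2.83 ± 0.09, adjusted p = 4.08e-06). The pepsinogen gene Pga5 lay at 4.19 and 4.25 against 6.89 and 6.84 (2.64 ± 0.09, adjusted p = 4.14e-06), and the zinc finger gene Zfp640 at 2.90 and 2.96 against 6.06 and 5.27 (2.74 ± 0.22, adjusted p = 0.000163). In all 3 the HP1αKO arrays lay below the floor.

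EB WT was set beside the called genes to show on which side of it the knockouts stood. The WT mean lay between the knockout means for 797 called genes nearer HP1αKO and for 600 nearer HP1βKO. It lay outside them for 545 genes on the side of HP1αKO and for 246 on the side of HP1βKO. Among genes of at least 2-fold these numbers were 166, 114, 77 and 18. The sarcomere and pluripotency genes described above belonged for the most part to the first kinds, as for Myh6, Tnnt2, Pou5f1 and Nanog. Hoxd13, Hoxd10 and Aldh1a2 stood near WT in HP1αKO and above it in HP1βKO, whereas Meg3 and Rian stood near WT in HP1βKO and below it in HP1αKO. WT carries another line label, although the study names it the littermate control, so a line difference in WT levels cannot be told apart.

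Genes of chromosome 8 were shifted as a group. Of its 567 tested genes 16.6% were higher and 6.53% lower, and their median difference was 0.12, whereas the medians of the other chromosomes lay between -0.09 and -0.0097. On the other chromosomes between 6.09% and 14.3% of genes were higher and between 9.69% and 17.1% lower. Relative to WT the chromosome 8 median was -0.21 in HP1βKO and -0.31 in HP1αKO, both below WT, and that of chromosome 11 was 0.16 and 0.19, both above it. In undifferentiated ESCs the chromosome 8 median of HP1βKO was 0.12 against HP1αKO 1. Against HP1αKO 2, where Cbx5 went against the label, it was -0.28. The cause was not tested.

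**Figure D5:**
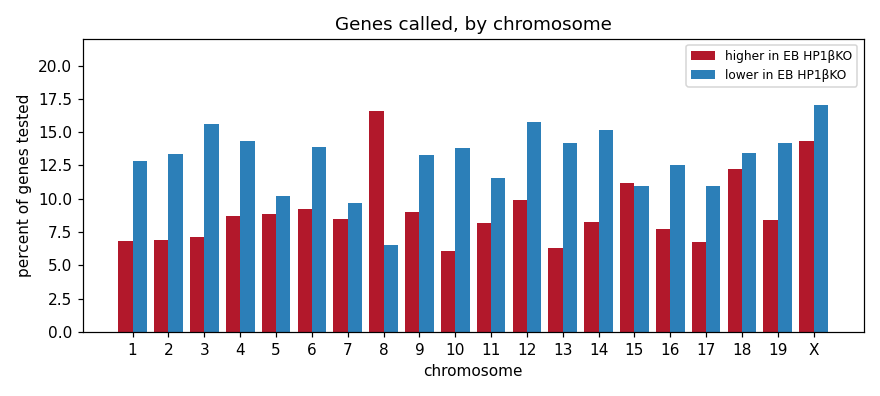
Percent of the tested genes of each chromosome (y axis, from 0) that were called higher (red) or lower (blue) in EB HP1βKO than in EB HP1αKO. Chromosome 8, with 16.6% higher and 6.53% lower, has the tallest red bar and the shortest blue bar.

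The pairwise rule of the study's methods was read as a count without a test, requiring all 4 pairs of arrays between the groups to differ in 1 direction by a given fold. At 1.5-fold 667 genes met it (6.55%), 256 higher and 411 lower in HP1βKO. At 2.5-fold 182 did (1.79%), 65 higher and 117 lower. Of the 30 genes with the largest differences, all 30 passed on the 6 EB arrays and 28 on all 12 arrays, with Meg3 and Ccr1l1 as the exceptions.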

How the data were processed

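Total RNA of day 7 EBs was hybridised to Affymetrix mouse arrays. The study's methods name an exon array, whereas the platform annotation used here is that of a gene array. The deposited values are log2 signals that the authors made with Affymetrix Expression Console by robust multi-array average (RMA), which corrects background, quantile-normalizes probes between arrays and summarizes them per feature, so that a shift shared by most genes would be removed. Software versions and genome build: not given in the sources used here. Platform annotation named 21789 of 35556 features by 1 symbol, 1621 by several and 12146 by none. Only the first were used, with the feature of highest mean kept for each of 19938 genes. Of 125 called genes with several features, 18 had features of opposite sign. Among the genes described, another feature gave 0.16 for Tmod1, and smaller differences of the same sign for Nebl (-1.45), Dppa2 (1.64), Calcoco2 (1.47) and Zfp640 (1.81). Genes above a signal of 45 on at least 1 of the 4 arrays were fitted with limma 3.58.1 in R 4.3.3 (group means, empirical Bayes, 2 residual degrees of freedom), with 2-sided p-values and Benjamini-Hochberg adjustment over 10186 genes. The code was tested on simulated data. Groups came from the sample titles. Named were the 15 largest rises and 15 largest falls, the HP1 genes and members of 47 gene lists, leaving out genes known by a locus number only. The members and lists were chosen with earlier results of these data known. Lists were described by counts and medians, without a test. Alternatives covered the arrays that set the spread, a replicate block, empirical Bayes settings, the floor, the feature kept per gene, scaling and leaving out each array. The number of arrays limits the precision.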

Additional observations from a re-analysis of the deposited data

Results flagged for a closer look

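Of 294 genes called in EBs and belonging to the named genes or lists, 41 differed in the opposite direction on the ESC arrays of the same genotypes. For these 41 the ESC groups did not overlap, as was also so for 352 of all 2188 genes called in EBs. The 41 are a listing and are not read as a result about these genes as a set. The difference between the stages was not tested. One of the 2 ESC HP1αKO arrays went against its label, with Cbx5 at 9.99 on ESC HP1αKO 2 and at 8.04 on ESC HP1αKO 1, so these directions rest on arrays labelled HP1αKO. The EB call of 11 of the 41 was lost when an array was left out, 7 of them lower and 4 higher in EBs. Without HP1αKO 1 the adjusted p in EBs was 0.38 for Myl6, 0.40 for Suv39h2, 0.187 for Flt1, 0.153 for Sox17, 0.135 for Fgf5, 0.081 for Atf3 and 0.056 for Cldn7, and 0.307 for Bst2, 0.175 for Timp1, 0.11 for Stat3 and 0.106 for Fbln1. Values are ESC HP1βKO minus ESC HP1αKO on the log2 scale, n = 2 arrays each.

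In ESCs 29 of the 41 were higher in HP1βKO and were called lower in EBs with all 4 arrays. Among muscle genes these were Acta1 (0.549), Actc1 (1.692), Tpm1 (0.7958), Myh6 (0.2673), Myl6 (0.1441) and Unc45b (0.08752). In ESCs Myh6 lay at 5.48 and 5.27 in HP1αKO and at 5.58 and 5.71 in HP1βKO, and Unc45b at 5.52 and 5.63 against 5.68 and 5.64, next to the floor of 5.49, where differences are at the level of background. Among genes of the primed state and early lineages they were Otx2 (1.147), Fgf5 (1.877), Fgf8 (0.6), Fgf15 (0.9905), Foxa2 (0.6666), Sox17 (1.077), Cxcr4 (0.8271), Sall2 (0.7017) and Lin28b (0.1976). Wnt and retinoic acid genes were Dkk1 (0.9982), Fzd2 (0.7362), Fzd8 (0.7292) and Cyp26a1 (2.02). Neural genes were Nes (1.165) and Nefl (1.215), and vascular genes were Flt1 (1.66) and Lmo2 (0.7772). Sox17 also lay close to or under the floor on the ESC arrays. The remaining ones were Car4 (2.259), Car14 (1.379), Cldn6 (0.7352), Cldn7 (0.7892), Atf3 (0.8619) and Suv39h2 (0.1057).

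The other 12 were lower in ESC HP1βKO and called higher in EBs with all 4 arrays. Pluripotency-related genes were Dppa5a (-0.6665), Gdf3 (-0.7895), Tfcp2l1 (-1.208) and Stat3 (-0.1739), and trophoblast-related ones Tfap2c (-0.6596). The others were Bst2 (-0.5018), Ifitm1 (-0.9661), Cbx7 (-0.3757), Nrp2 (-0.6592), Fbln1 (-0.6306), Timp1 (-0.7258) and Slc22a18 (-0.5808). Over all 2188 genes called in EBs, the ESC groups did not overlap in the opposite direction for 352 and in the same direction for 255.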

How the results depend on the processing

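The number of genes called (2188, 903 higher and 1285 lower) stayed within 1.5 times under most alternatives, between 1856 with a floor of 100 and 2689 with a mean-variance trend. With all 12 arrays setting the spread, 421 were called (145 higher and 276 lower), and that fit includes the ESC HP1αKO array that went against its label. Without limma's moderation 0 were called (0 higher and 0 lower), with 2382 at an unadjusted p under 0.05 and 2 residual degrees of freedom. Leaving out 1 array gave between 1284 and 3898 genes, 518 to 1527 higher and 766 to 2561 lower. Where this left 1 array in a group, it was assumed to vary like the other group. With the replicate number as a block 2139 genes were called (875 higher and 1264 lower). Same-numbered arrays did not deviate together (correlation of replicate differences -0.092), so the numbers were not treated as pairs. Centring gave 2520 (1295 and 1225) and renewed quantile normalization 2484 (1243 and 1241). The 1.5-fold pairwise count was 438 with a floor of 100 and 758 to 954 without 1 array, and the 2.5-fold count was 124 with that floor and 203 to 216 without 1 array. Of 295 named genes none changed direction in any alternative run. Calls were lost for 166 on 12 arrays, 294 without moderation, 56 without HP1αKO 1, 52 without HP1αKO 2, 28 without a floor and at most 11 in each other alternative. With 2 arrays a group, a gene that missed the threshold was not shown to be equal.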

Other observations

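Several small groups complete the description, with values as HP1βKO minus HP1αKO ± SE. Of 8 trophoblast genes 3 were higher and 2 lower, among them Tfap2c (1.01 ± 0.11), a factor shared with germ cells, and the keratin Krt7 (-0.71 ± 0.10). The Polycomb subunit Cbx7 was the 1 gene higher of 3 Polycomb Cbx genes tested, at 4.92 and 5.03 in HP1αKO and at 5.70 and 5.76 in HP1βKO (0.76 ± 0.09). Of 3 apelin receptor and ligand genes 1 was lower, the peptide hormone Apela, at 7.72 and 7.78 against 6.65 and 6.37, with WT above both at 9.55 and 9.66. The 1 tested germline gene, the repressor Prdm1, was lower by -1.02 ± 0.09. In purine salvage 2 of 5 were lower and 1 higher, led by Hprt. Of 2 sex-linked genes tested 1 was lower, the histone demethylase gene Uty (-0.90 ± 0.09).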
